A study of Mus musculus with 4 samples.

Results

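The 10 genes described here, Apoe, Abca1, Trem2, Cd36, Gpnmb, Fabp4, Fabp5, Lpl, Plin2 and Lgals3, are those commonly used to recognise lipid-associated macrophages, and they were taken by symbol from the 32285 genes of the deposited matrices. The study asked which leukocytes of the inflamed colon change when the aryl hydrocarbon receptor (AhR) is missing. AhR-null mice and wild-type mice on a C57BL/6 background were given 2% dextran sulfate sodium (DSS), a chemical that damages the gut lining, in drinking water for 7 days, and colons were taken on day 8. Cells carrying CD45, the surface protein of leukocytes, were enriched with magnetic beads and sequenced in 4 droplet libraries, each holding the mixed colons of 3 mice. The mice were 10 weeks old according to the sample labels and 8 weeks old according to the published description. The labels give every sample the same DSS treatment and number the samples 1 to 4 without a genotype, so the samples stay unassigned here, no genotype was compared, and no sample without DSS was analysed here.

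Lipid-associated macrophages are known from fat tissue, atherosclerotic plaques and injured brain, where they take up lipid from dying cells and from lipoproteins. In this programme TREM2, a receptor for lipids and apolipoproteins, signals through the adaptor TYROBP. CD36 and lipoprotein lipase (encoded by Lpl) bring fatty acids to the cell, FABP4 and FABP5 carry them inside it, and perilipin 2 (Plin2) coats the droplets in which they are stored. ABCA1 passes cholesterol out of the cell, apolipoprotein E (Apoe) accepts it, and liver X receptors are known to switch on both genes. Intestinal macrophages arise largely from blood monocytes, which lose Ly6C and gain complement C1q and scavenger receptors as they mature in the lamina propria.

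The libraries held 45229 cell barcodes with 72509408 to 135516016 unique molecular identifiers (UMIs, one per captured RNA molecule) each, and 39550 cells were kept after filters on genes, mitochondrial UMIs and doublet scores. Any pair of libraries shared 0.271% to 0.423% of the barcodes of the smaller one. Cells were assigned to classes by marker genes, none of them among the 10 genes. Of the 100 class markers, 96 had their highest median level in their own class, and Ly6c2, Cx3cr1 and Prdm1 were among the exceptions. Because the same markers assigned the cells, this count was largely set by the assignment and is no independent check of it. Within the monocyte-macrophage lineage, 2686 cells had monocyte markers without C1q genes (monocytes, 342 to 1036 per sample), 2386 had both (transitional cells, 283 to 713) and 1882 had C1q genes without monocyte markers (macrophages, 329 to 614). Cells with markers of unlike lineages made up 24.4% to 31.4% of the kept cells and entered no class. Fibroblasts, endothelial cells and epithelial cells were present in spite of the CD45 enrichment. A level is given in CPM (counts per 1e6), the UMIs of a gene in a class scaled by all UMIs of that class in 1 sample, and levels are compared for 1 gene at a time. Intervals are exact 95% intervals and cover counting error only, since 1 sample holds all cells of a class and cells are not replicates. A class was read in a sample only where it held at least 50 cells there.

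Across the 4 samples the macrophages held more Apoe, Cd36 and Fabp5 RNA than the monocytes of the same sample, with median ratios of 6.17, 6.69 and 6.11. Trem2, Gpnmb, Abca1 and Plin2 were also higher in every sample, with lower median ratios, and Lgals3 was lower in macrophages in every sample. Of the 8 genes that reached 10 CPM over both cell types in every sample, 3 were at least 2-fold higher in macrophages in all 4 samples (Apoe, Cd36 and Fabp5) and 0 were at least 2-fold lower, while among all 6433 genes measured 3.22% were that much higher and 2.35% that much lower. All 8 genes also reached 10 CPM in each cell type on its own, and among the 5789 genes that did so 1.87% were at least 2-fold higher and 1.66% lower. Fabp4 and Lpl did not reach 10 CPM and are described below by their levels. The median log2 ratio of the 8 genes was 1.24, beside 0.10 over all genes measured. Macrophages had a median depth of 5098 to 7135 UMIs per cell and monocytes 5713 to 8676, and the macrophages were the deeper cells only in sample 3.

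**Figure D1:**
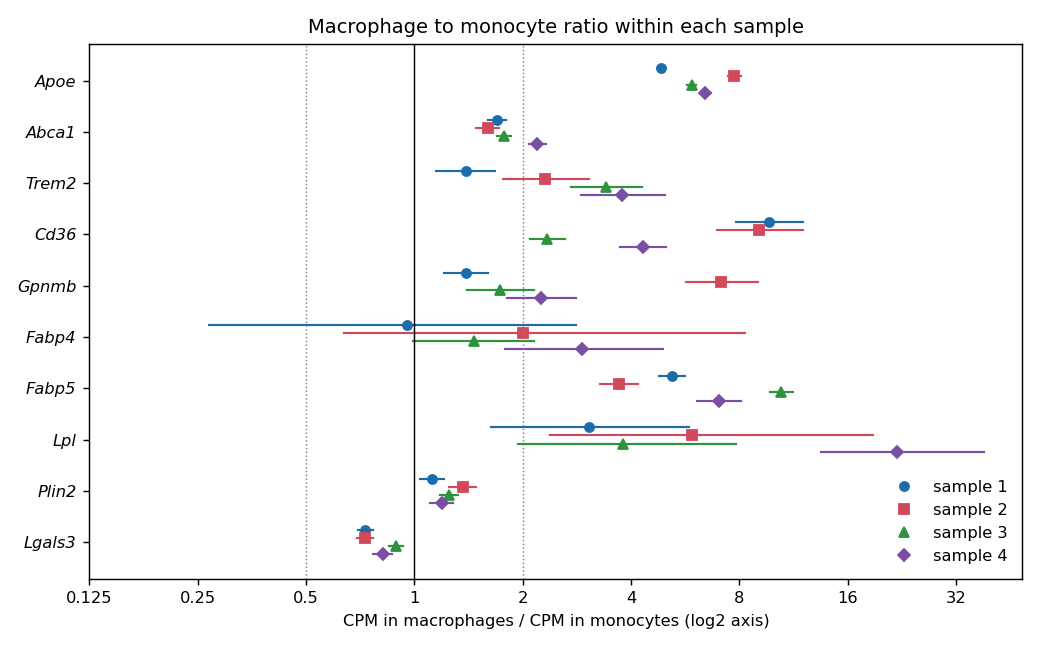
Ratio of CPM in macrophages to CPM in monocytes of the same sample for each of the 10 genes, on a log2 axis. Points are the 4 samples, bars are exact 95% intervals for counting error, the solid line marks equal levels and the dotted lines mark 2-fold. Apoe, Cd36, Fabp5 and Lpl lie beyond 2-fold in all 4 samples, and Lgals3 lies below 1 in all 4.

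Apoe encodes the apolipoprotein that macrophages secrete to carry cholesterol and lipids. Its level in macrophages was 5251 CPM in sample 1, 9194 in sample 2, 5591 in sample 3 and 6804 in sample 4. In monocytes it was 1081, 1187, 948 and 1057 CPM, so the ranges of the cell types did not overlap, and the ratio was 4.86 to 7.75. Transitional cells lay between them at 2703 to 4847 CPM, which was 2.50 to 4.08 times the monocyte level and was exceeded again by the macrophages 1.64 to 1.94 times. With every cell reduced to 1000 UMIs, Apoe was detected in 87.7% to 95.5% of macrophages and in 44.0% to 49.9% of monocytes. The RNA was spread widely, and the 10 highest macrophages held 11.2% to 21.1% of the Apoe UMIs.

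Abca1, the cholesterol exporter, stood at 772, 798, 1028 and 1357 CPM in the macrophages of samples 1 to 4. The monocytes held 455, 499, 579 and 617 CPM, and the ratio of 1.60 to 2.20 exceeded 1 beyond the counting interval in all 4 samples. Samples 3 and 4 were the higher ones in both cell types. Neutrophils carried Abca1 at 36.0% to 59.3% of the macrophage level and endothelial cells of sample 3 at 589 CPM, so this gene was not limited to macrophages.

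Trem2, the lipid-sensing receptor after which the programme is often named, was measured at 67.9, 78.0, 59.4 and 89.7 CPM in macrophages. Monocytes held 48.8, 33.9, 17.4 and 23.7 CPM. The ratio was 1.39 in sample 1 and 2.30, 3.41 and 3.78 in samples 2, 3 and 4, with sample 1 the only one under 2-fold, where the monocyte level was the highest of the 4. Transitional cells had already reached the macrophage level, at 61.0 to 85.0 CPM, and the macrophage to transitional ratio of 0.918 to 1.15 did not leave 1 beyond its interval in any sample. Outside the monocyte-macrophage lineage Trem2 stayed at or below 2.86 CPM in every class read. Its UMIs were few, with 174 to 288 per sample in macrophages.

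Cd36, a scavenger receptor for fatty acids and oxidised lipoproteins, reached 158, 266, 185 and 326 CPM in macrophages. In monocytes its level was 16.3 and 29.3 CPM in samples 1 and 2 and 79.2 and 75.7 CPM in samples 3 and 4. The ratio was accordingly 9.69 and 9.07 in the former samples and 2.34 and 4.31 in the latter. The RNA was unevenly spread, since 14.9% to 26.4% of macrophages had a Cd36 UMI and the 10 highest cells held 35.5% to 74.8% of the UMIs.

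Gpnmb encodes a transmembrane glycoprotein of phagocytes that is induced under lysosomal and lipid load. Macrophages held 121, 296, 45.5 and 92.4 CPM, and monocytes 86.9, 41.5, 26.2 and 41.0 CPM. Sample 2 stood out with a ratio of 7.13, while the other samples gave 1.39, 1.74 and 2.25, and in sample 3 the transitional cells (58.9 CPM) exceeded the macrophages. A few cells carried much of this RNA. In sample 4 a single macrophage held 30.04% of the Gpnmb UMIs, and the level without that cell was 65.1 CPM, while in sample 1 a single cell held 24.2% and the level without it was 92.8 CPM.

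Fabp5, the fatty acid carrier of macrophages and epidermis, was at 638, 579, 1316 and 546 CPM in macrophages and at 123, 156, 126 and 77.9 CPM in monocytes. The ratio was 5.20, 3.71, 10.5 and 7.01, the highest in sample 3, which also had the highest macrophage level. Transitional cells were intermediate at 265 to 632 CPM, and the gene was higher at both steps in every sample. At 1000 UMIs per cell it was detected in 20.1% to 45.9% of macrophages and 4.45% to 9.79% of monocytes.

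Fabp4 behaved differently from its paralog. Macrophages held 1.95, 4.06, 13.7 and 22.4 CPM, from 5 to 59 UMIs per sample, and monocytes 2.04, 2.02, 9.36 and 7.69 CPM. The ratio left 1 beyond its interval only in sample 4 (2.92). T and innate lymphoid cells held 1.57 to 4.996 CPM, or 21.7% to 110% of the macrophage level, and in sample 1 the macrophage value did not exceed theirs. Endothelial cells were the main carriers, as described below. Summed over 10 endothelial markers, the macrophages held 66.2 to 98.9 CPM and the monocytes 34.8 to 54.1 CPM, with 2 to 5 of the 10 markers at 0, against 6526 to 8635 CPM in the endothelial cells themselves, and the part of free or carried-over endothelial RNA in the macrophage Fabp4 level was not tested.

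Lpl, the lipase that frees fatty acids from lipoproteins, was low in macrophages of samples 1 to 3 (9.36, 14.9 and 7.67 CPM) and higher in sample 4 (120 CPM). Monocytes held 3.06, 2.53, 2.01 and 5.45 CPM, giving ratios of 3.06, 5.89, 3.81 and 22.0. The value of sample 4 rested on very few cells, since 1 macrophage held 204 of the 315 UMIs and the level without it was 42.4 CPM. Only 2.04% to 5.11% of macrophages had an Lpl UMI.

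Plin2, the droplet coat protein, changed little along the lineage. It was 381, 536, 546 and 580 CPM in macrophages and 340, 393, 437 and 487 CPM in monocytes, with ratios of 1.12 to 1.36 that exceeded 1 beyond the interval in all 4 samples. Neutrophils held it at 57.0% to 63.6% of the macrophage level.

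Lgals3, encoding galectin-3, a sugar-binding protein that marks damaged lysosomes and is abundant in activated phagocytes, ran the opposite way. Monocytes held 1274, 1222, 862 and 768 CPM and macrophages 933, 892, 766 and 628 CPM. The ratio was 0.729 to 0.889 and lay below 1 beyond the interval in every sample. The decrease was present at the transitional stage (0.737 to 0.848 times the monocyte level), and from there to the macrophage stage the ratio was 0.923 to 1.05.

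**Figure D2:**
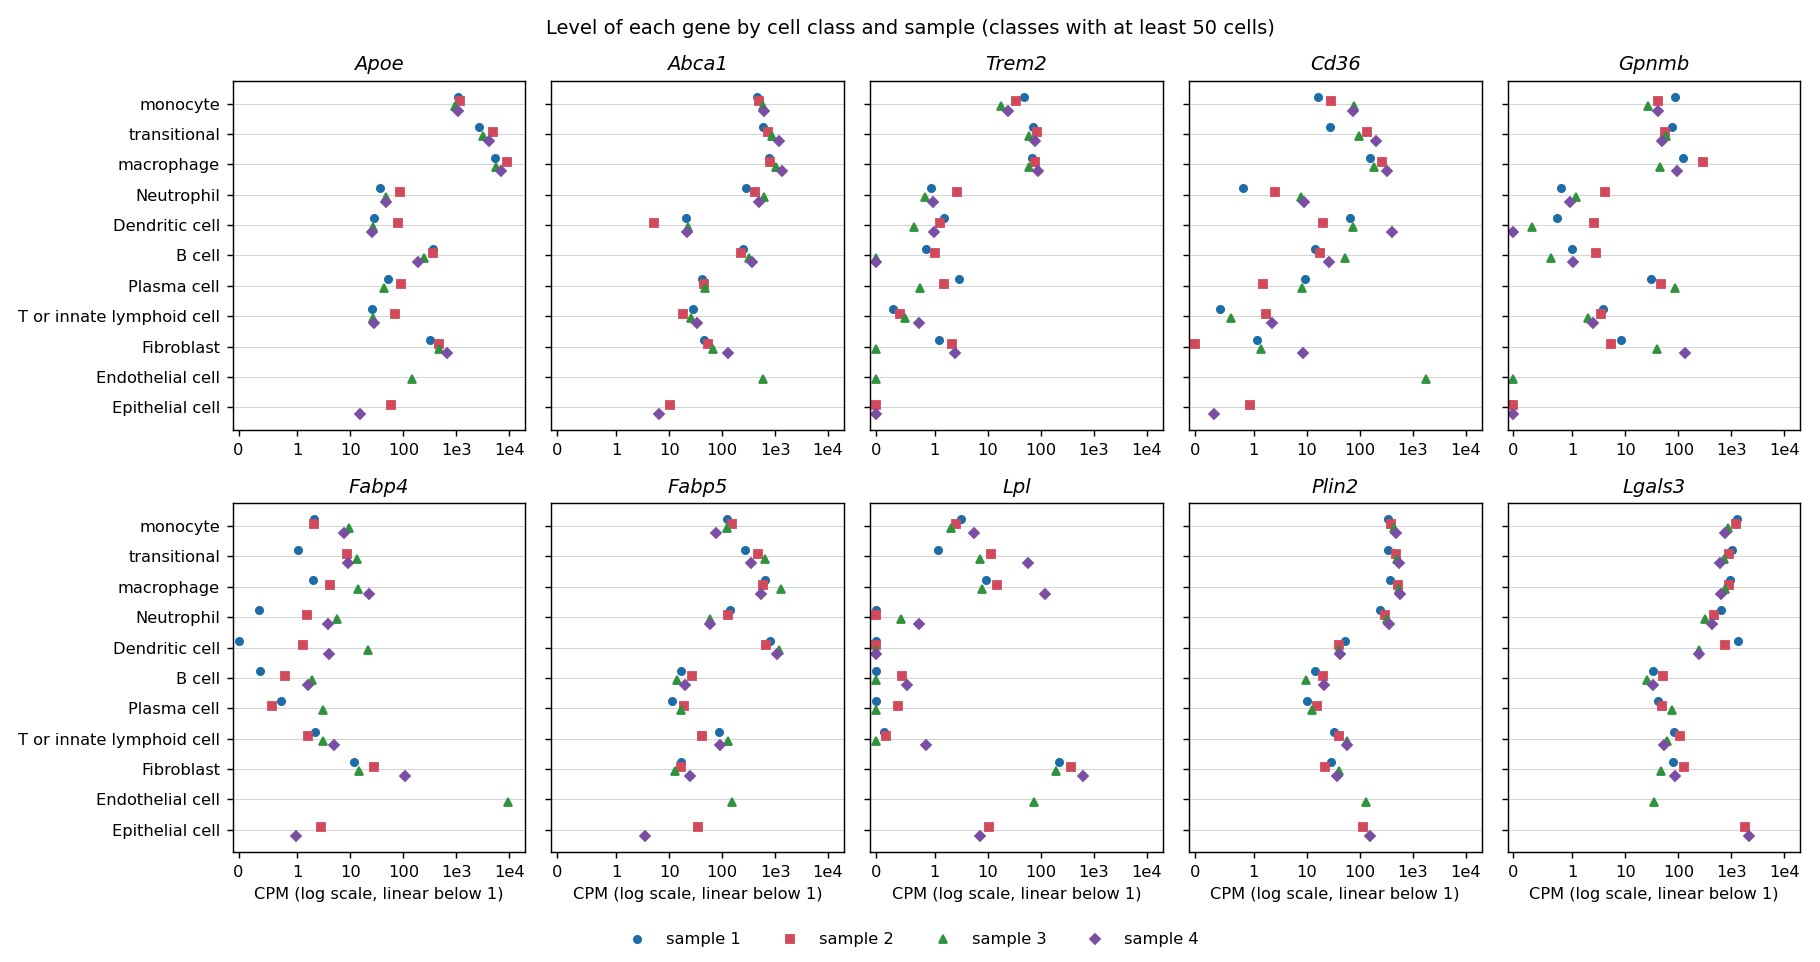
Level of each gene in CPM (log axis, linear below 1) by cell class, with 1 point per sample and only classes of at least 50 cells in that sample. Trem2 points outside the monocyte-macrophage lineage lie at or below 2.86 CPM, while the highest points are endothelial for Fabp4 and Cd36, fibroblast for Lpl and epithelial for Lgals3.

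Several of the genes had their highest level outside macrophages. Fabp4 and Cd36 are both known genes of capillary endothelium, and in sample 3, where 77 endothelial cells were gated, Fabp4 stood at 9614 CPM and Cd36 at 1814 CPM. These were 702 times (interval 532 to 947) and 9.78 times (8.91 to 10.7) the levels of the macrophages of that sample. The other samples held only 18 to 49 endothelial cells and gave Fabp4 levels of 2704, 4793 and 11202 CPM and Cd36 levels of 406, 628 and 3303 CPM. Lpl was highest in fibroblasts, at 222, 378, 197 and 632 CPM, which was 5.27 to 25.6 times the macrophage level. Lgals3 was highest in epithelial cells, at 1793 CPM in sample 2 and 2202 CPM in sample 4, or 2.01 and 3.51 times the macrophage level.

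Fabp5 was carried by dendritic cells as well as by macrophages. Dendritic cells held 803, 660, 1160 and 1077 CPM, which exceeded the macrophages of the same sample in samples 1, 2 and 4 (ratios 1.26, 1.14 and 1.97) and fell below them in sample 3 (0.881). Summed over 8 dendritic cell markers, macrophages held 46.4 to 74.9 CPM against 2330 to 4663 CPM in dendritic cells. Apoe, by contrast, stood in dendritic cells at 0.00377 to 0.00872 times the macrophage level and Plin2 at 0.0748 to 0.138 times. Lpl had 0 UMIs in the dendritic cells of all 4 samples, which allows up to 0.962 to 3.82 CPM. Cd36 in dendritic cells ranged from 20.4 to 407 CPM, and in sample 4, which gave the upper value, 1 cell held 37.5% of the UMIs and the 10 highest cells 98.5%.

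B cells carried the cholesterol pair. Abca1 was 246, 227, 322 and 370 CPM in B cells, against 27.9, 18.3, 26.0 and 33.0 CPM in T and innate lymphoid cells, a ratio of 8.83 to 12.4. Apoe was 361, 369, 241 and 188 CPM in B cells against 25.9, 68.3, 26.8 and 27.3 CPM, a ratio of 5.41 to 13.96. Of the 4 genes that reached 10 CPM in each of these cell types, these were at least 2-fold higher in B cells in all 4 samples and 0 were that much lower, beside 4.71% higher and 4.62% lower among 6325 genes. The macrophage genes Pf4 and Ms4a7, which B cells are not known to express, stood in B cells at 0.290% to 0.907% of their macrophage level. The other macrophage genes read in this way were thinly counted, with Cbr2 at 0 UMIs in 3 samples, Cd163 at 0 in 1 sample and at 0.779% to 2.84% in the rest, and Folr2 at 0 in 2 samples and at 2.21% and 8.14% in the rest. Abca1 stood at 27.3% to 31.9%, above all of them, and Apoe at 2.76% to 6.87%, which overlapped the values of Cd163 and Folr2, and the part of free macrophage RNA in the B cell Apoe level was not tested. Cd36 was also higher in B cells than in T and innate lymphoid cells, at 14.3 to 52.1 CPM against 0.429 to 2.19 CPM, but it was below the 10 CPM limit and in sample 3 a single B cell held 41 of its 82 UMIs.

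Gpnmb was found in plasma cells at 30.01, 46.2 and 85.4 CPM in samples 1 to 3, in 39.3% to 57.7% of cells that had a median of 18255 to 25999 UMIs. B cells held 0.636 to 2.80 CPM, a ratio of 16.5 to 134. Reduced to 1000 UMIs per cell, 3.57% to 6.76% of plasma cells had a Gpnmb UMI, beside 2.28% to 12.6% of macrophages and at most 0.375% of B cells. Pf4 stood in plasma cells at 0.261% to 0.464% of its macrophage level, and Gpnmb at 15.6% to 188%. Ms4a7 was at 0 UMIs in 1 sample and at 0.436% to 0.713% in the rest. Cd163 was at 0 in 1 sample and at 0.290% to 2.23% in the rest. Cbr2 was at 0 in 2 samples and at 1.49% in the other, and Folr2 at 0 in 2 and at 3.38% in the other. The other surface receptors did not follow, with Trem2 at 0.749 to 2.86 CPM in plasma cells. The plasma cells of sample 4 numbered 37 and were not read. Fibroblasts also held Gpnmb, at 8.28, 5.30, 39.2 and 133 CPM in samples 1 to 4, or 0.0179 to 1.44 times the macrophage level.

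**Figure D3:**
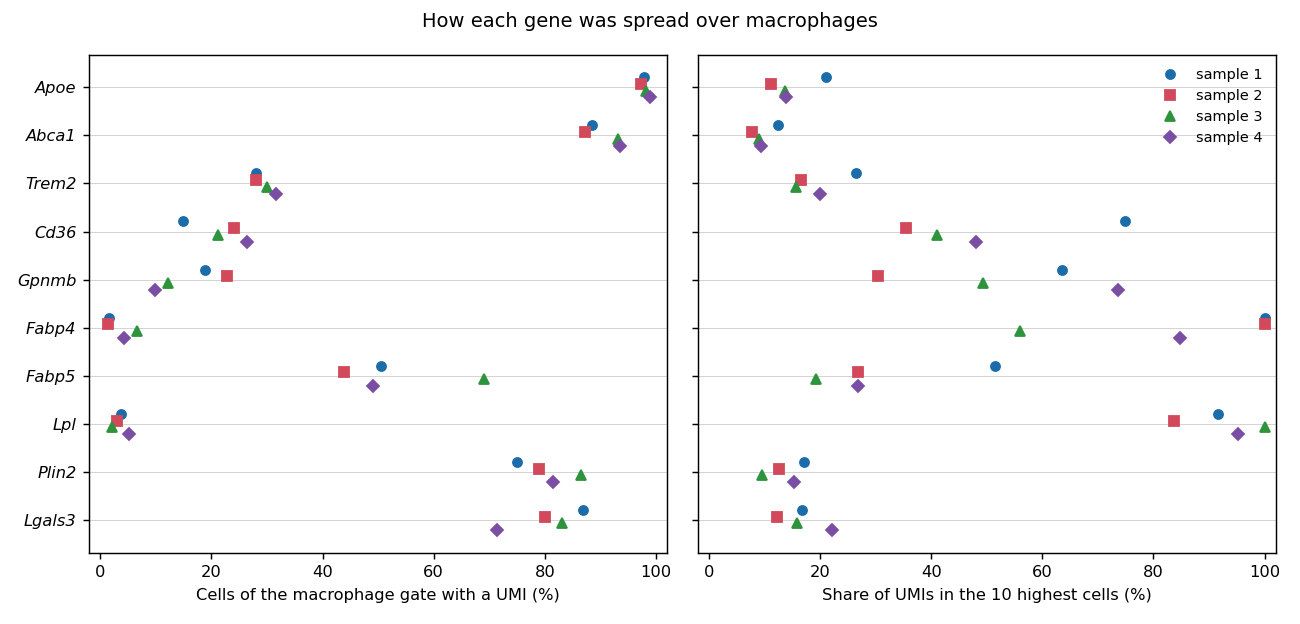
For each gene and sample, the percentage of macrophages with at least 1 UMI (left) and the percentage of the UMIs held by the 10 highest macrophages (right). Apoe and Abca1 reach most cells, and the 10 highest cells hold at most 21.1% of their UMIs. Lpl and Fabp4 are found in at most 6.54% of cells, and the 10 highest cells hold 56.0% or more of their UMIs.

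In single macrophages the genes ranged from nearly ubiquitous to rare. Apoe was found in 97.2% to 98.9% of macrophages at full depth, Abca1 in 87.3% to 93.6%, Plin2 in 75.1% to 86.5% and Lgals3 in 71.3% to 86.9%. Fabp5 was found in 43.8% to 69.1%, Trem2 in 28.0% to 31.6%, Cd36 in 14.9% to 26.4% and Gpnmb in 9.78% to 22.8%, while Fabp4 and Lpl were found in 1.47% to 6.54% and 2.04% to 5.11%. The 10 highest cells held 15.7% to 26.4% of the Trem2 UMIs and 30.4% to 73.7% of the Gpnmb UMIs, so Trem2 and Gpnmb differed in how many cells shared them.

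Co-detection was counted after every cell was reduced to 1000 UMIs, so that deeper cells did not gain genes by depth. At least 5 of the 10 genes were found together in 7.41%, 11.5%, 9.13% and 10.2% of macrophages in samples 1 to 4. Transitional cells gave 2.53% to 6.77% and monocytes 1.06% to 1.55%, and the macrophage interval lay above the monocyte interval in every sample. The lineage cells that reached neither limit were read in sample 3 only, where 4 of 64 (6.25%) had at least 5 genes. Single genes also differed at this depth, with Apoe in 87.7% to 95.5% of macrophages and 44.0% to 49.9% of monocytes. The part of such single-gene differences in the shares of cells with 5 of the 10 genes was not tested. No B, T or innate lymphoid, dendritic, plasma, fibroblast or epithelial cell had 5 of them at this depth, which allows a share of up to 5.36% where a class had the fewest cells (0 of 56, taking 3 cells as the most that a count of 0 allows), neutrophils gave at most 0.0905%, and endothelial cells of sample 3 gave 2.86%. Trem2, Gpnmb and Apoe were found in the same cell in 0.454% to 1.69% of macrophages, which were 2, 10, 3 and 2 cells in samples 1 to 4. They were found together in 0 of the monocytes of any sample. That allows a share of up to 0.890% in the sample with the fewest monocytes (0 of 337, by the same limit). The macrophage and monocyte intervals overlapped in every sample. Transitional cells gave 0% to 0.295%, and 1 neutrophil of sample 2 (0.174%) also had these genes together. The shares and their order depended on depth. Without the reduction at least 5 genes were found in 52.8% to 69.9% of macrophages, 60.5% to 63.6% of transitional cells and 28.0% to 50% of monocytes, with transitional cells above macrophages in samples 1, 2 and 4. Trem2, Gpnmb and Apoe were then found together in 5.52% to 8.79% of macrophages, 3.07% to 7.57% of transitional cells and 1.25% to 5.70% of monocytes, with transitional cells above macrophages in samples 1 and 3.

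**Figure D4:**
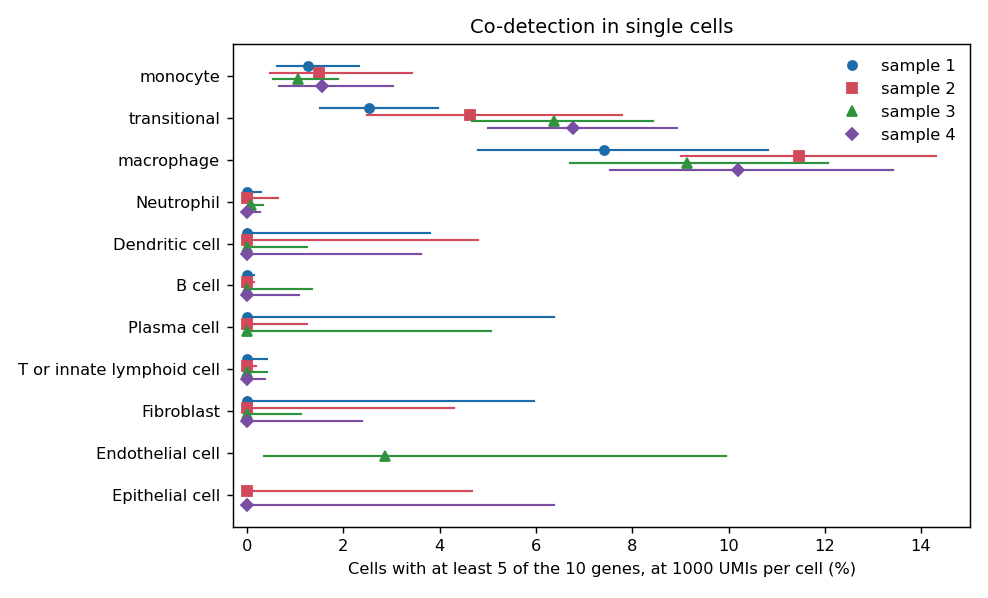
Percentage of cells with at least 5 of the 10 genes after reduction to 1000 UMIs per cell, by class, with 1 point per sample and exact 95% binomial intervals. Macrophages lie between 7.41% and 11.5%, transitional cells between 2.53% and 6.77% and monocytes between 1.06% and 1.55%.

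Among the 45 pairs of genes in macrophages, 1 pair, Gpnmb with Fabp5, had shares that differed beyond their intervals in at least 3 samples. Of macrophages with Gpnmb, 55.6%, 54.7%, 81.8% and 70.6% also had Fabp5 in samples 1 to 4, against 18.0%, 17.6%, 45.0% and 23.8% of macrophages without Gpnmb. The intervals overlapped only in sample 3, where 11 macrophages had Gpnmb at this depth. The phi coefficient, which is 0 for independent detection, was 0.11 to 0.30 for this pair. The pair is a description of cells that share a library, and no monocyte or transitional pair met the same count. At 2000 UMIs per cell 2 macrophage pairs met it, this one and Fabp5 with Lgals3.

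Across 41 points, each a cell class in 1 sample, levels of the 10 genes varied together to different degrees, as a description of points that share libraries and depth. Apoe and Trem2 were the most alike pair, with a Pearson r of 0.894 on the log2(CPM + 10) scale, and Fabp4 with Trem2 gave -0.0408. Among 7978 genes the nearest to Trem2 were C3ar1 (0.978), Kcnk13 (0.977) and Clec4a3 (0.966), and genes close to Apoe included Itga9 (0.933) and Rgl1 (0.916). Abca1 was nearest to Tlr7 (0.896), Arap1 and Sh3bp5, Plin2 to Card19 (0.948), Tlr2 and Tnf, and Lgals3 to Efhd2 (0.884), Vamp8 and Tnfrsf21. Fabp5 was nearest to Bcl2a1a (0.879), Aph1c and Pik3r1, Gpnmb to Rcbtb2 (0.813), Itgb5 and Hivep3, and Cd36 to Stard8 (0.822), Prcp and Parvb. The genes nearest to Fabp4 were Jam2 (0.949), Sema3g and Unc45b, and those nearest to Lpl were Gpx3 (0.943), Colec12 and Dpysl3. Only 1 of the 41 points was endothelial, with Fabp4 at 9614 CPM against at most 105 CPM at the other points. The part of that point in the r values of Fabp4, the value with Trem2 included, was not tested.

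The known partners of the 10 genes were read in the same macrophage to monocyte comparison. Of the 5 liver X receptor pathway genes that reached 10 CPM in each cell type in every sample, 0 passed the fold in either direction. Nr1h3, a liver X receptor, and Pltp, the phospholipid transfer protein, fell under 10 CPM in the monocytes of 1 sample each. They reached the limit there only through the macrophages. Their median ratios were 4.64 (3.16 to 6.23) and 17.1 (9.89 to 22.1). Nr1h2, another liver X receptor, had a median ratio of 0.902 (0.831 to 1.01) and did not leave 1 beyond its interval in any sample. By any amount, 6 of the 7 genes of this list that reached 10 CPM over both cell types were higher in all 4 samples. None was lower, beside 35.6% higher and 23.4% lower among the 6433 genes measured. Of 5 PPAR pathway genes, 0 passed. Pparg, a receptor that drives fatty acid handling, was at 5.24 to 11.4 CPM in monocytes and 28.5 to 80.5 CPM in macrophages. Its median ratio was 5.39 (3.11 to 9.36). Ppard, another receptor of this family, was lower in macrophages at 0.764 (0.712 to 0.815), below 1 beyond the interval in all 4 samples. Its levels were 132 to 200 CPM in macrophages and 177 to 282 CPM in monocytes. Nr1h2, Apoc1 and Ppard were added after their values were seen.

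Of 9 genes on a list of TREM2 signalling and associated genes, 1 was at least 2-fold higher in all 4 samples and 0 were lower. The 1 gene was the integrin Itgax, at 3.31-fold (2.81 to 4.91). The phagocytic receptor Axl was at 5.13 to 9.32 CPM in monocytes and 133 to 156 CPM in macrophages. Counting Axl, which reached 10 CPM only over both cell types, the list's median log2 ratio was -0.29 over 10 genes. By any amount, 2 of the 10 were higher and 3 lower in all 4 samples. Among the 6433 genes measured, 35.6% were higher and 23.4% lower in this way. The adaptor Tyrobp had a median ratio of 0.769 (0.675 to 0.893), below 1 beyond the interval in all 4 samples, as were the kinase Syk and the transcription factor Spi1, which were added after their values were seen. Spp1 (osteopontin) gave 0.702 (0.492 to 1.44).

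Of 17 genes of the lysosome and of lipid hydrolysis, 3 were at least 2-fold higher. These were Cd63 at 13.2-fold, the protease Lgmn at 3.88-fold and the protease Ctsb at 2.80-fold. By any amount, 14 of the 17 were higher in all 4 samples and 1 was lower, beside 35.6% higher and 23.4% lower by any amount among the 6433 genes that reached 10 CPM over both cell types. Of 6 lipid uptake receptors, Olr1, the oxidised lipoprotein receptor, was lower at 0.299 (0.230 to 0.436) and 0 were higher, while Mertk, which binds dying cells, was at 4.05 to 23.4 CPM in monocytes and 71.0 to 189 CPM in macrophages. None of the 5 cholesterol synthesis genes measured passed in either direction, and their median log2 ratio was 0.02. The 2-fold counts of these lists stand beside the shares of 1.87% higher and 1.66% lower among genes that reached 10 CPM in each cell type.

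C1q-positive cells, that is macrophages plus transitional cells, were also split by a UMI of Mmp12 (macrophage elastase) or of Arg1 (arginase 1, an enzyme of repair-type macrophages), and the cells with the marker were compared with those without it. The Mmp12-positive cells numbered 81 to 187 and the Arg1-positive cells 52 to 392 per sample. None of the 8 genes measured was at least 2-fold higher in all 4 samples in either comparison, beside 0.0306% of 6546 genes for Mmp12 and 0.0611% for Arg1, which were 2 and 4 genes. None was at least 2-fold lower either, beside 0.00% and 0.137%. The marker used for a split was not excluded from the genes counted as higher, and its own difference is fixed by the split. Gpnmb was nonetheless higher in Mmp12-positive cells beyond the counting interval in every sample, at 140, 261, 112 and 193 CPM against 81.6, 205, 39.9 and 46.5 CPM, a ratio of 1.28 to 4.15. The 10 highest macrophages held 30.4% to 73.7% of the Gpnmb UMIs, and the part of single cells in these ratios was not tested. Fabp5 (1.18 to 1.51) and Lgals3 (1.07 to 1.35) were also higher in all 4 samples, whereas Trem2 (0.910 to 1.11) stayed within its interval in each.

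In the Arg1 comparison Cd36 was lower in Arg1-positive cells in all 4 samples, at 22.8, 130, 92.3 and 207 CPM against 67.3, 228, 153 and 277 CPM, a ratio of 0.339 to 0.747. Gpnmb went in different directions, with ratios of 0.300 and 0.361 in samples 1 and 2 and 1.65 in sample 4, while both parts of sample 3 held 53.7 CPM. Spp1 was higher in Arg1-positive cells in all 4 samples, by 1.62 to 7.13 times. Arg1-positive cells had median depths of 6278 to 8919 UMIs and Arg1-negative cells 5468 to 8578. The marker-positive cells were the deeper ones in every sample for Arg1 and for Mmp12. Both comparisons pooled macrophages with transitional cells. Macrophages exceeded transitional cells 1.57 to 5.64 times for Cd36 and 1.64 to 1.94 times for Apoe. The parts of depth, of the mix of macrophages and transitional cells, and of single cells rich in Cd36 or Gpnmb RNA, in the ratios of both comparisons were not tested.

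**Figure D5:**
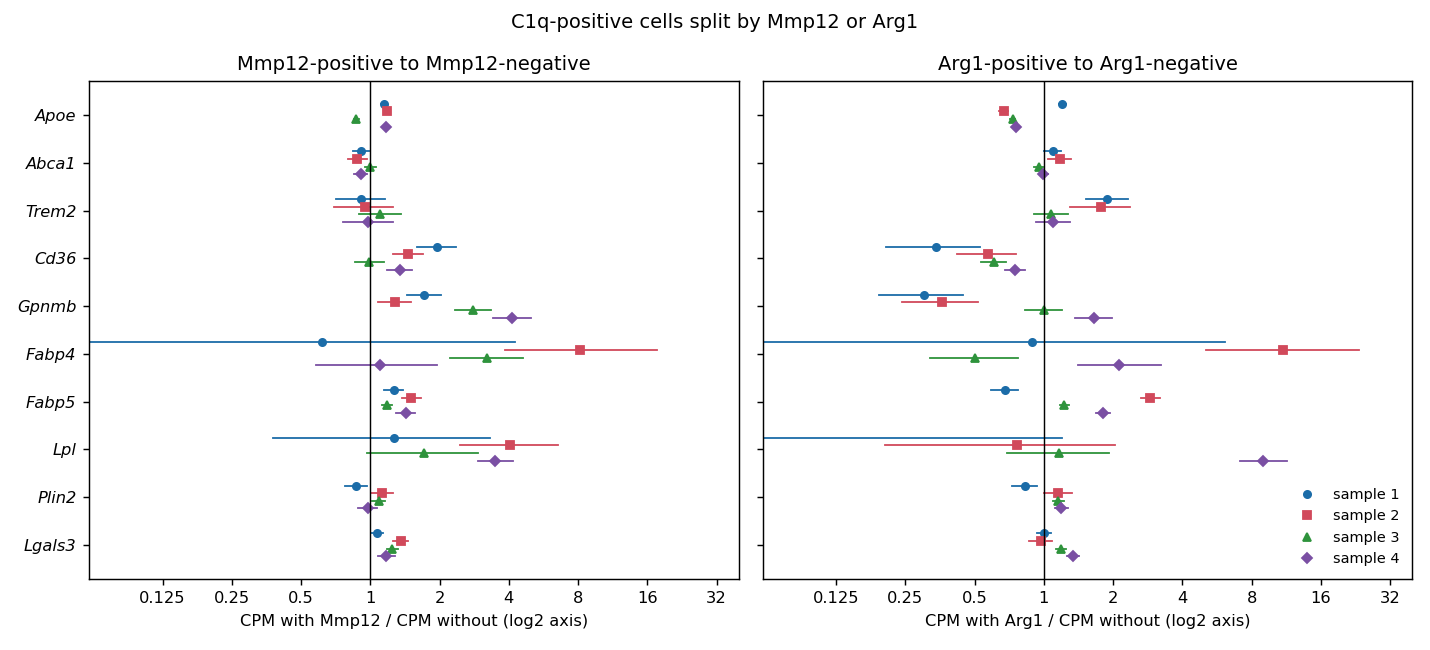
Ratio of CPM in C1q-positive cells with the marker to CPM in those without it, on a log2 axis, for Mmp12 (left) and Arg1 (right). Points are samples and bars exact 95% counting intervals, some of which run past the axis for Fabp4 and Lpl. Gpnmb lies above 1 in all 4 samples for Mmp12, and Cd36 lies below 1 in all 4 for Arg1.

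Fabp4 (chr3:10204088-10208576, minus strand) and Fabp5 (chr3:10012548-10016607, plus strand) are paralogs on the same chromosome of GRCm38, and Abca1 (chr4:53030787-53159895) and Plin2 (chr4:86648386-86670060) are on the same chromosome far apart. Trem2 lies at chr17:48346401-48354147 and Gpnmb at chr6:49036546-49070929, both on the plus strand and both protein-coding, in the GENCODE M21 annotation. RefSeq promoter windows of 300 bases (GRCm38.p6) were found for 7 of the 10 genes. Of these, Trem2 and Gpnmb contained TGANTCA, searched on both strands, as did 7.81% of all 32851 promoter windows. This pattern takes in TGACTCA, the sequence bound by AP-1 factors. The Trem2 and Gpnmb sequences from 50 bases before to 20 bases after the RefSeq start are printed with the matching letters in capitals. The match begins within 9 bases of the RefSeq start in both, as TGAATCA in Trem2 and TGACTCA in Gpnmb. For Gpnmb the RefSeq start lies upstream of the GENCODE start, and the printed window ends at 49036537, before the GENCODE start of 49036546.
Trem2 (chr17:48346351-48346420, plus strand): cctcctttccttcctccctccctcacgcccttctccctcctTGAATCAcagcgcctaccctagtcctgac
Gpnmb (chr6:49036468-49036537, plus strand): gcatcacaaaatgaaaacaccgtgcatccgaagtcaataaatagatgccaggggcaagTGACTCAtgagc
The letters CACGTG, the core of the sequence read by the lysosomal regulator TFEB, were in the windows of Abca1 and Plin2 and in 7.15% of all windows. The paired receptor site letters AGGTCANAGGTCA and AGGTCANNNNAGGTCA were in none of the 7 windows and in 0.0396% and 0.0152% of all, and a match or its absence in so short a window is a description only.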

How the data were processed

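Single-cell RNA libraries (10x Genomics droplets) of 4 samples were read from the deposited matrices of raw UMI counts per gene and cell, which the authors made with Cell Ranger (version 7.0.1 in the matrix header, 5.0.0 in the submitters' processing notes, which also name STAR, Seurat and build mm10). The deposited gene IDs were compared with GENCODE M21, which holds 32235 of the 32285. No column was left unused.

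Cells with at least 200 genes and under 20% mitochondrial UMIs were kept, and the cells with the highest doublet scores were removed at 0.8% per 1000 cells. The scores came from an own implementation of the Scrublet procedure in Python 3.11.15 (numpy 2.4.6, scipy 1.17.1, scikit-learn 1.9.0), with 2 simulated doublets per cell, 2000 variable genes and 30 components. A cell entered the class with the largest share of its markers detected, with at least 3 markers, and was called mixed where another lineage reached 50% of that share. Macrophages had at least 2 of 3 C1q genes and fewer than 2 of 5 monocyte markers, monocytes the reverse, and transitional cells both. The scripts were tested on simulated data.

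UMIs were summed per class and sample and given as CPM with exact Poisson intervals, ratios with exact intervals and shares with exact binomial intervals, all at 95%. A gene was counted in a comparison where it reached 10 CPM over both cell types in every sample, and called where it differed at least 2-fold in all samples. The 2-fold counts of the partner lists and of B cells against T and innate lymphoid cells required 10 CPM in each cell type. This filter was added after the data were seen, because a gene that passes only through the class where it is high had to differ. Counts by any amount used 10 CPM over both cell types. No p-value was computed. Named genes were all 10 members, up to 4 genes of each partner list that passed the fold in all samples, Tyrobp, Spp1, Nr1h3 and Pparg in any case, and the 3 genes most alike each member, among those reaching 50 CPM in a class. Some genes that this rule names are not reported here. Depth was 72509408 to 135516016 UMIs per library. The alternatives were no doublet removal, mixed cells kept, other filters and gates, other weighting, thinning and leaving out each sample. The members and lists were chosen with earlier results of these data known.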

Additional observations from a re-analysis of the deposited data

How the results depend on the processing

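The number of genes at least 2-fold higher in macrophages than in monocytes in every sample was 3 to 4 over all alternatives. It was 4 without sample 1, without the minimum CPM and at 1.5-fold, and the number at least 2-fold lower was 0 throughout. With 10 CPM required in each cell type, a filter added after seeing the data, the count was 3 as before. The median log2 ratio of each of the 10 genes kept its direction in all 120 values under the alternatives, although that of Cd36 ranged from 1.98 to 3.18 when samples were left out in turn or settings changed. Endothelial values rested on sample 3. The log2 ratio of endothelial cells to macrophages was 9.46 for Fabp4, 8.84 with mixed cells kept and 8.73 with gates read on cells thinned to 2000 UMIs, and for Cd36 it was 3.29, 3.49 with the thinned gates and 2.33 with samples of at least 10 endothelial cells, a limit set after seeing the data. The cause of these shifts was not tested. Co-detection followed depth. The median share of macrophages with Trem2, Gpnmb and Apoe was 0.620% at 1000 UMIs, 1.49% at 2000 and 6.76% without thinning, and the share with at least 5 genes was 9.67%, 26.3% and 55.7%. The planned comparison of macrophages with both Arg1 and Mmp12 was not run, since 1 to 29 such cells were found per sample, and the single-marker comparisons replaced it after seeing the data. Thinly counted genes (Fabp4, Lpl, Trem2) are limited by depth. No paired analysis was possible because the samples have no group and no test between samples was made.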

Other observations

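Several levels separated samples 1 and 2 from samples 3 and 4, which the labels place in no group, and no test was made. The levels listed here are a choice of those that did so, and how many did was not counted. Macrophage levels of Apoe (5251, 9194, 5591 and 6804 CPM), Trem2, Fabp5 and Lpl did not separate the samples in this way. Cd36 in monocytes was 16.3, 29.3, 79.2 and 75.7 CPM in samples 1 to 4, and Fabp4 in monocytes was 2.04, 2.02, 9.36 and 7.69 CPM. Abca1 in macrophages was 772, 798, 1028 and 1357 CPM. Lgals3 went the other way, with 1274, 1222, 862 and 768 CPM in monocytes and 1329, 771, 251 and 251 CPM in dendritic cells. Arg1 was detected in 8.64%, 5.80%, 32.8% and 34.0% of C1q-positive cells. The samples also differed in composition, with B cells at 26.1%, 22.7%, 2.69% and 4.52% of kept cells and 25, 18, 77 and 49 endothelial cells. Summed endothelial markers in monocytes were 41.9, 54.1, 34.8 and 35.6 CPM, and their part in these values was not tested.

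The mixed cells left out of every class held 33.8% to 38.5% of all Trem2 UMIs of kept cells and 41.2% to 57.4% of the Fabp5 UMIs. The monocyte-macrophage cells held 59.6% to 63.9% of the Trem2 UMIs but only 2.16% to 3.14% of the Fabp4 UMIs.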
